A study of Mikania micrantha with 15 samples.

Results

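Leaf and root of Mikania micrantha, a climbing vine in the daisy family (Asteraceae) that grows rapidly, were compared by RNA sequencing across every gene ID with enough reads. The leaf libraries (3) and root libraries (3) belonged to a series of 15 that also covered flower, shoot apex and stem, with 3 libraries each. Of 41487 IDs in the count table, 23351 were tested, and these held 99.7% of the reads of the leaf and root libraries. The rule that chose them asked for sufficient reads and did not use the direction of any difference. An ID could pass through 1 organ alone, so the rule was not blind to large differences. The tested ID with the fewest reads had 30 over the 6 libraries. Of these, 14, 7 and 8 lay in root replicates 1, 2 and 3 and 1 in leaf replicate 3. An ID left out had 1179, of which 1175 lay in leaf replicate 1, 3 in leaf replicate 3 and 1 in root replicate 3.

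Per the labels, all organs came from wild-type vines with no transgene and no treatment contrast. Branch cuttings that bore a leaf were rooted in water for about 1 week until roots measured roughly 4 to 5 cm. They then grew for 60 days in Hoagland solution, a defined mineral medium, at 24 °C under 16 h of light and 8 h of dark. The roots were therefore grown in liquid, not in soil. The age or position of the sampled leaves was not stated, and the labels do not say whether replicates were separate plants. The p-values thus set each difference against a spread estimated from the libraries at hand, part of which may be technical.

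Leaves are the main site of photosynthesis. Their mesophyll cells hold chloroplasts, in which light-harvesting complexes feed the photosystems and the Calvin cycle fixes carbon dioxide. Roots usually lack active chloroplasts and depend on sugars sent from the leaves. They take up water, nitrate, phosphate and metal ions through membrane transporters, and an endodermis with a Casparian strip and suberin controls what enters the vascular tissue. The deposited table identifies genes by locus tag and does not pair them with names, so no ID could be assigned to these pathways. For the same reason the organ labels could not be checked against marker genes, and genes are described here by their pattern of expression.

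Library totals were 7952050, 12001006 and 10070191 counts in leaf replicates 1, 2 and 3. In root they were 10015399, 3777165 and 5468010. Pearson's r of log2 CPM (read counts scaled to a common library size) across genes was 0.906 to 0.967 between leaf libraries, 0.909 to 0.969 between root libraries and 0.506 to 0.531 between the organs. Leaf replicates 1 and 2 had the lowest r within leaf, and root replicates 1 and 2 the lowest within root. The biological coefficient of variation, the replicate spread beyond counting error, was 34.0% in leaf and 34.9% in root. It was 28.8% in stem, but 13.9% in shoot apex and 14.8% in flower. Differences were therefore tested with a spread estimated from the leaf and root libraries alone. Leaf replicate 1 also held reads of flower genes. A group of 114 IDs, picked without the leaf libraries, had a flower mean of 50 CPM or more and averaged under 1 CPM in stem, shoot apex and root. Leaf replicate 1 held reads of each of them, at 0.0783% of its counts, against 0.00377% and 0.00411% in leaf replicates 2 and 3. Of these 114 IDs, 3 were among the genes tested and were called higher in leaf. Without leaf replicate 1, 4 were tested and called higher in leaf. The IDs were picked partly for a low root mean. Those with enough leaf reads to be tested were thus all but bound to lean to leaf, and the direction of these calls was not read further.

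Leaf and root differed in a large part of the transcriptome, in both directions. A gene was called when the edgeR quasi-likelihood test gave an adjusted p under 0.05 and the fitted change was at least 2-fold. This held for 9911 genes, 42.4% of those tested. Of these, 5204 (22.3% of the genes tested) were higher in leaf and 4707 (20.2%) were higher in root. The adjusted p alone was passed by 11121 genes, 47.6%. Without leaf replicate 1 and root replicate 1, a fit to the remaining 4 libraries called 11488 genes. Leaf held 52.5% of the calls, but with plain library totals in place of scaled ones it held 60.9%, and without root replicate 1 it held 58.1%. With plain totals the median log2 ratio of leaf to root over all genes was 0.25, against 0.03 with TMM scaling, which assumes that most genes do not change. In bulk tissue, fewer cells of a type and less RNA per cell cannot be told apart.

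**Figure D1:**
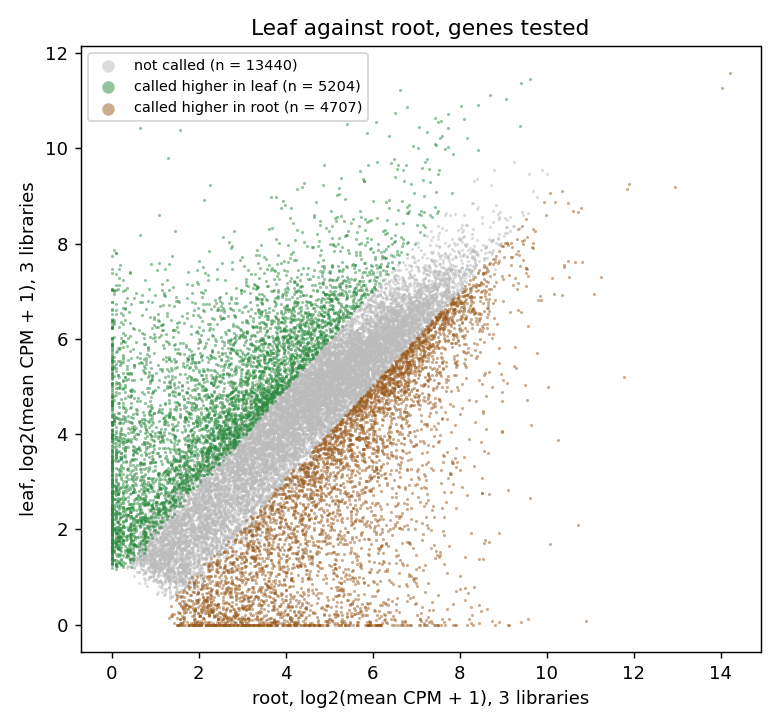
Mean expression of each tested gene in root (horizontal axis) and leaf (vertical axis), as log2(mean CPM + 1) over 3 libraries. Points are coloured by the call, with 5204 genes higher in leaf in green, 4707 higher in root in brown and the 13440 not called in grey along the diagonal, and many called genes lie on either axis, at or near 0 in the other organ.

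In most called genes the leaf and root libraries did not overlap, which the calling itself favours because it weighs the difference against the replicate spread. In leaf, 5139 of the 5204 calls had all 3 leaf values above all 3 root values. In root, 4616 of the 4707 calls had all 3 root values above all 3 leaf values. Over all genes tested, the groups did not overlap in 58.6%. The gap between the lowest library of the higher organ and the highest library of the lower organ was 2.63-fold at the median of the non-overlapping leaf calls. It was 2.56-fold for root calls. Genes without a read in the lower organ have no such ratio and are not in these medians.

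Changes of 2- to 4-fold were the most common class in either direction, and a long tail of very large changes followed. Among leaf calls, 1978 lay between 2 and 4-fold, 1231 between 4 and 8-fold and 677 between 8 and 16-fold. A further 642 lay between 16 and 64-fold, 296 were over 64-fold and 380 had no read in root. Among root calls the same classes held 2003, 921, 535, 583, 385 and 280 genes, the last being those with no read in leaf. The median log2 fold change of the calls was 2.42 in leaf and -2.31 in root, against a median size of 0.96 over all genes tested. All genes without a read in the lower organ had fitted folds over 64, so that class would hold 676 leaf and 665 root genes with them. These genes passed the read filter through the higher organ alone, and every one of them that was tested was called. Fitted folds over 64 rest on few reads in the lower organ.

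**Figure D2:**
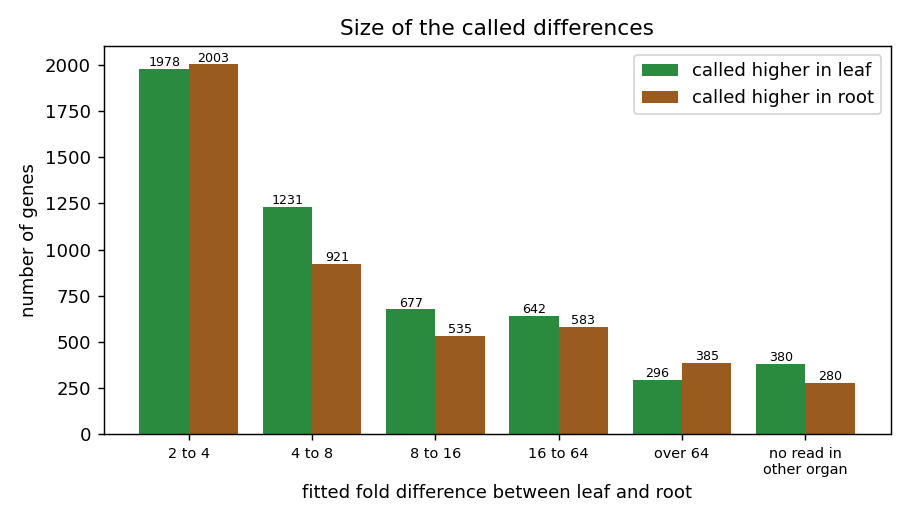
Number of called genes (vertical axis) by fitted fold difference between leaf and root (horizontal axis), with leaf calls in green and root calls in brown. The 2 to 4-fold class holds 1978 leaf and 2003 root genes, leaf exceeds root from 4 to 64-fold, and the over 64-fold class leaves out genes with no read in the other organ, with which it holds 676 leaf and 665 root genes.

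Similar expression in leaf and root could be bounded for a smaller set. The 95% interval of the fold change lay within 2-fold in either direction for 3299 genes, 14.1% of those tested. Another 10141 genes, 43.4%, were neither called nor bounded in this way, so for them these libraries leave a 2-fold difference undecided. The calls themselves were tested against no difference, and a test against a 2-fold change (glmTreat) gave 6532 calls. The median half-width of the interval was 0.86 on the log2 scale. Without leaf replicate 3 the bounded genes numbered 1354, and without root replicate 3 they numbered 1513. Bounded genes took 18.4 to 21.6% of the counts in leaf libraries and 16.8 to 18.3% in root libraries.

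Transcripts with a mean of 100 to 1000 CPM were called more often in root than in leaf. Classes were formed by the mean CPM over the 6 libraries, which is not corrected for gene length. Among the 2218 genes with a mean of 100 to 1000 CPM, 723 were higher in root and 314 in leaf, so leaf held 30.3% of the calls in that class. Leaf held 52.8% of the calls between 10 and 100 CPM, with 2922 leaf and 2609 root genes, and 58.3% of those between 1 and 10 CPM, with 1884 and 1348. The 19 genes over 1000 CPM were all called, 8 in leaf and 11 in root. By the mean in the higher organ alone, 749 leaf and 1242 root calls reached 100 CPM. At 1000 CPM or more there were 34 leaf and 30 root calls, so the root excess did not extend to that level. Leaf held the minority of the calls at 100 to 1000 CPM in each edgeR fit in which the class was counted, but the share depended on scaling and libraries. It was 43.3% with plain totals, 43.7% without root replicate 1, 44.7% without root replicate 2 and 21.8% without leaf replicate 1. Under 100 CPM the direction of the excess was not refitted.

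**Figure D3:**
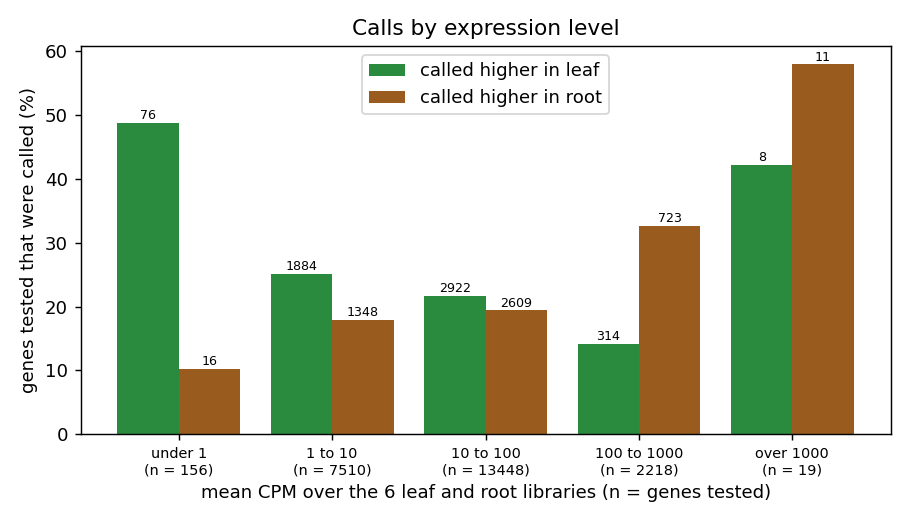
Percentage of tested genes that were called (vertical axis) by mean CPM over the 6 libraries (horizontal axis), with the number of called genes above each bar, green for leaf and brown for root. In the class of 100 to 1000 CPM, 723 root calls stand against 314 leaf calls, whereas leaf has more calls in each class below it.

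Genes called in root took a larger part of their organ's RNA than genes called in leaf. Leaf calls made up 38.3, 30.9 and 35.3% of the counts in leaf replicates 1, 2 and 3, and 6.55, 5.17 and 5.44% in root replicates 1, 2 and 3. Root calls made up 41.0, 46.4 and 43.5% of the counts in the root libraries and 11.9, 11.8 and 12.0% in the leaf libraries. The genes were chosen on these values, so the shares describe the calls and were not tested. The number of genes needed to reach 50% of the counts was 2164, 2966 and 2537 in leaf replicates 1, 2 and 3. In root it was 2230, 1691 and 1985, so leaf replicate 1 lay below root replicate 1.

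The most abundant genes were largely organ-biased. Of the 100 genes with the highest mean CPM in leaf, 82 were called higher in leaf, 8 higher in root and 10 were not called. Of the top 100 in root, 83 were called higher in root, 3 higher in leaf and 14 were not called. The lists shared 17 genes. The genes were ranked by the level that also enters the test, so these counts are given beside the 22.3% of tested genes called in leaf and 20.2% in root without further reading.

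The same library was often the highest or the lowest across the abundant genes of an organ. Of the 749 leaf calls whose leaf mean reached 100 CPM, leaf replicate 1 was the highest leaf library for 504 and leaf replicate 2 the lowest for 601. For the 1242 root calls of that level, root replicate 2 was the highest for 726 and root replicate 1 the lowest for 678. The highest replicate was 1.61 times the lowest at the median of the abundant leaf genes and 1.42 times at that of the abundant root genes. Spread of at least 4-fold within the organ was seen for 23 of the leaf and 32 of the root genes. Leaf replicate 1 had the smallest leaf total and root replicate 2 the smallest root total, and the part of depth in this order was not tested.

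One ID illustrates the abundant and variable leaf genes. E3N88_19494 had the highest mean CPM in leaf among leaf calls without overlap, and 1 overlapping call had a higher mean. It was at 4676, 936 and 2355 CPM in leaf replicates 1, 2 and 3. In root replicates 1, 2 and 3 it was at 565, 888 and 578 CPM. The lowest leaf library was only 1.05 times the highest root library, so the groups were barely apart. Its log2 fold change of leaf over root was 1.97 ± 0.55 (SE, n = 3 per organ, edgeR adjusted p = 0.0159). Without leaf replicate 1 the log2 fold change was 1.29 (edgeR adjusted p = 0.0368). Without root replicate 3 the call was lost (log2 fold change 1.87, edgeR adjusted p = 0.0618), and over all alternatives the adjusted p ran from 0.00037 to 0.0932.

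The smallest adjusted p was shared by 5 leaf and 22 root calls, and in each direction the one with the largest fitted fold is described. In leaf this was E3N88_07911. It was at 223, 211 and 235 CPM in leaf replicates 1, 2 and 3. In root it had no read in replicates 1 and 2 and 1 read in replicate 3, so leaf and root were far apart. The ratio of leaf to root reads, scaled for depth, was 4027 with a 95% exact interval of 722.5 to 159077 that covers counting error only. The edgeR adjusted p was 5.63e-06, and over all alternatives it stayed at or below 0.000607. Outside these organs, with CPM scaled over all 15 libraries, it was at 235, 214 and 245 CPM in flower, 51.3, 37.7 and 36.9 in shoot apex, and 5.77, 7.15 and 3.41 in stem. Flower thus lay at the level of leaf, where the same scaling gave 238, 235 and 256 CPM.

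Among root calls without overlap, the one with the highest mean CPM had reads in all organs. Another 2 root calls had a higher mean but overlapped with leaf. E3N88_01270 was at 12592, 4930 and 6285 CPM in root replicates 1, 2 and 3, and at 390, 746 and 605 CPM in leaf. All root libraries exceeded all leaf libraries, the lowest root value being 6.61 times the highest leaf value. The log2 fold change of leaf over root was -3.77 ± 0.51 (SE, n = 3 per organ, edgeR adjusted p = 0.000384). Without root replicate 1 it was -3.14 (edgeR adjusted p = 0.000665). With all 15 libraries scaled together, stem was at 4100, 4503 and 1232 CPM, and flower at 1383, 2807 and 2345. Stem replicates 1 and 2 thus lay near the lowest root library, at 5282 CPM, and stem replicate 3 well below it.

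The root gene chosen from those tied at the smallest adjusted p was at or near 0 elsewhere. E3N88_06566 was at 782, 775 and 470 CPM in root replicates 1, 2 and 3. Leaf held 1 read, in replicate 1. The ratio of root to leaf reads was 22800 with a 95% exact interval of 4091 to 900635, and the edgeR adjusted p was 5.63e-06. No stem library held a read, and it stayed between 0 and 0.550 CPM in shoot apex and flower. No library outside root reached 1 CPM, whereas E3N88_01270 was well above that level in each library.

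**Figure D4:**
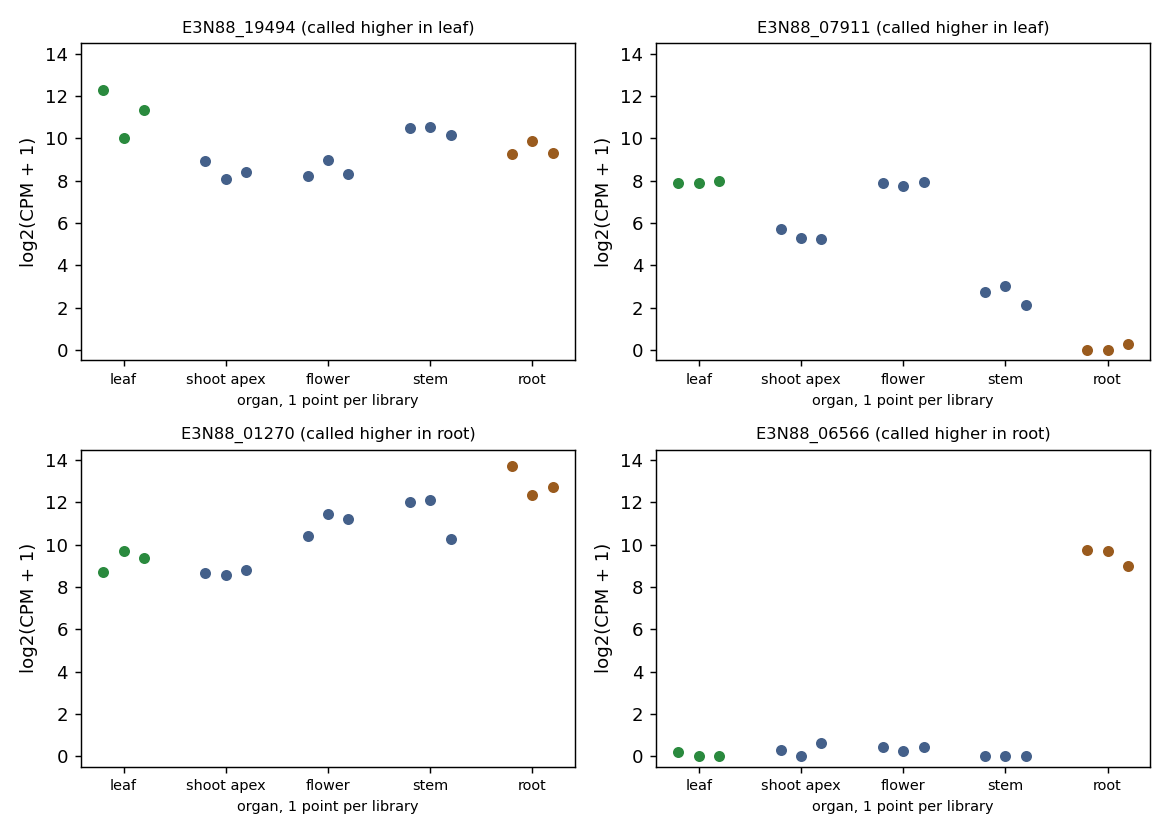
Expression of the 4 named IDs in each of the 15 libraries as log2(CPM + 1), scaled over all libraries, by organ (horizontal axis). E3N88_07911 is as high in flower as in leaf and at or near 0 in root, E3N88_06566 is at or near 0 outside root, and E3N88_19494 and E3N88_01270 are expressed in every organ.

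The remaining organs played no part in choosing the genes, and by median CPM the called sets lined them up in opposite orders. The median CPM of the 5204 leaf calls was 25.8 to 28.0 in leaf libraries, 19.6 to 20.8 in shoot apex, 14.2 to 16.5 in flower, 9.98 to 12.9 in stem and 3.64 to 4.53 in root. For the 4707 root calls it was 43.5 to 44.3 in root, 15.2 to 16.9 in stem, 11.8 to 13.2 in flower, 8.21 to 8.60 in shoot apex and 6.01 to 6.36 in leaf. The order of the organs was thus reversed between the sets, and within each set no library of an organ overlapped with those of another organ. Over all genes tested the medians ran from 17.2 to 22.0 CPM across the 15 libraries.

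**Figure D5:**
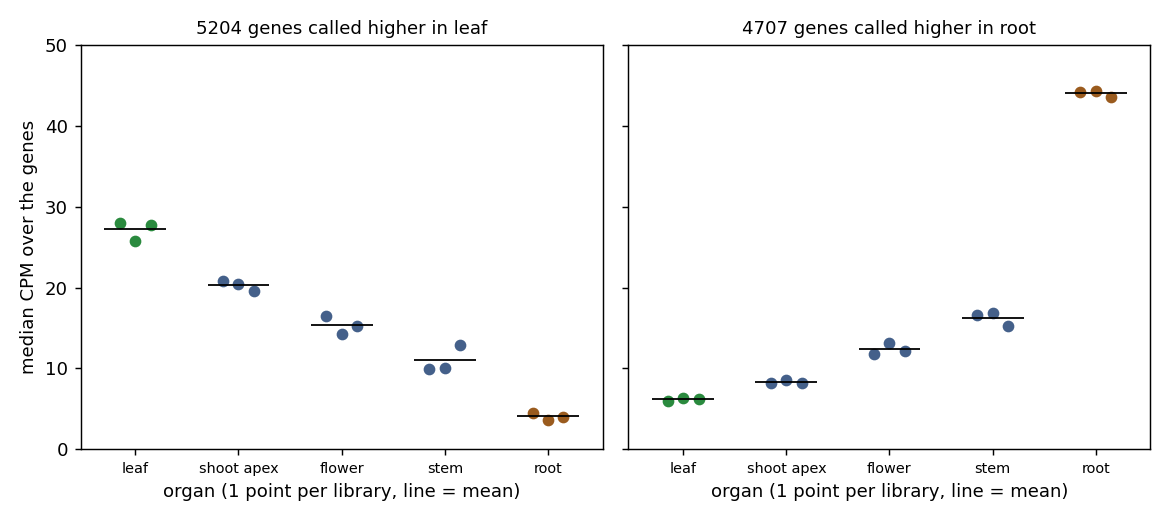
Median CPM over the genes called higher in leaf (left panel) and higher in root (right panel) in each library, by organ, with a line at the mean of the 3 libraries. Leaf calls decline from leaf through shoot apex, flower and stem to root, and root calls rise along the same axis, with stem at 15.2 to 16.9 CPM against 43.5 to 44.3 in root.

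The organ with the highest mean was leaf for 3062 of the leaf calls, 58.8%, and root for 3533 of the root calls, 75.1%. Shoot apex was the highest organ for 1240 leaf calls, 23.8%, flower for 497 and stem for 405. For root calls, stem was the highest for 643, 13.7%, shoot apex for 268 and flower for 263. Over all genes tested, leaf was the highest organ for 20.4% and root for 25.6%. The calls were chosen for being higher in leaf or in root, which by itself raises their shares above these, so the excess was not read further. With plain library totals the shares were 53.2% for leaf calls in leaf and 69.3% for root calls in root.

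Genes at least 16-fold apart differed more clearly in how far other organs shared them. The 1318 leaf calls of that size had median levels of 17.7 to 22.5 CPM in leaf, 8.49 to 9.57 in shoot apex, 7.84 to 9.08 in flower and 3.11 to 5.16 in stem. The 1248 root calls of that size had medians of 24.3 to 27.9 CPM in root, but 1.07 to 1.09 in flower, 0.665 to 0.802 in stem and 0.286 to 0.331 in shoot apex. Flower thus lay above stem here, unlike the order over all root calls. Root was the highest organ for 1127 of them, 90.3%. Leaf was the highest organ for 829 of the strong leaf calls, 62.9%. These are descriptions of sets of unequal makeup, and the difference between them was not tested. Flower, shoot apex and stem are all shoot organs, so the series held other shoot organs beside leaf but no other root organ. The part of this sampling in the shares was not tested.

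On a scale from the root mean (0) to the leaf mean (100%) of each gene, in log2(CPM + 1), the median gene called in root lay close to leaf in shoot apex. The median position of shoot apex was 98.2 to 99.7% for root calls and 69.8 to 72.5% for leaf calls. Single genes spread widely around these medians, with quartiles of 61.9 to 64.2% and 121 to 123% for root calls and 31.6 to 34.9% and 110 to 113% for leaf calls. Stem lay between the organs, at 47.2 to 60.3% for root calls and 36.1 to 50% for leaf calls. Stem replicate 3 was the most leaf-like stem library in both sets. Flower lay at 72.4 to 83.9% and 50.9 to 60.6%.

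Many IDs were read in leaf and not in root, or the reverse. Of the 41487 IDs, 931 had reads in all 3 leaf libraries and in no root library. Another 512 had reads in all 3 root libraries and in no leaf library. The limit set by 3 counts over the 3 libraries was 0.156 CPM in root and 0.0999 CPM in leaf. With every library thinned to 3777165 counts, the numbers were 881 and 654. Most of these IDs were low, with a median of 1.29 CPM in leaf and 3.43 CPM in root, and 11 leaf and 23 root IDs reached 100 CPM. Of the 931 leaf IDs, 708 (76.0%) were read in all 3 flower libraries, 674 (72.4%) in all 3 of shoot apex and 357 (38.3%) in all 3 of stem, and 15 had no read in any of these organs. Of the 512 root IDs, 185 (36.1%) were read in all 3 flower libraries, 92 (18.0%) in shoot apex and 93 (18.2%) in stem, and none of these organs held a read for 95 (18.6%). The share of all IDs read in these organs was not computed. Detection also depends on the depth of their libraries, and flower, shoot apex and stem are all shoot organs. The contrast between the leaf and root IDs was therefore not read further.

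The ID number next to a strongly biased gene was biased the same way at a higher share than among all genes tested, though for most such genes it was not. Locus tags are usually numbered along an assembly, but no annotation was used here, so a neighbour means only the next number. Where the next number was also tested, it was called in the same direction for 27.6% of leaf calls and 28.4% of root calls, against 22.3 and 20.2% of all genes tested. For changes of at least 16-fold, the next number was also at least 16-fold in the same direction for 17.0% of the leaf genes (131 of 772) and 20.4% of the root genes (150 of 735). Such genes were 5.64 and 5.34% of all genes tested. Counting near-identical copies can tie neighbours together, and the part of this was not tested.

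Unbroken runs of at least 4 consecutive numbers called in 1 direction numbered 34 in leaf, with 150 of the 5204 leaf calls. In root they numbered 32, with 141 of the 4707 root calls. Leaf calls were 22.3% and root calls 20.2% of all genes tested, and the number of runs expected from these shares alone was not computed. The longest run had 8 genes in either direction. The root run of 8 was at a median of 7.31 CPM in root, and its smallest log2 difference was 4.51. The leaf run of 8 was at a median of 16.7 CPM in leaf, and its smallest log2 difference was 1.14. A leaf run of 5 with a median of 1700 CPM took 1.19, 0.343 and 0.784% of the counts in leaf replicates 1, 2 and 3 and 0.0175 to 0.0629% in root. A root run of 5 with a median of 3700 CPM took 0.571, 6.32 and 4.41% of root replicates 1, 2 and 3 and 0.956, 0.301 and 0.755% in leaf, so root replicate 1 lay below leaf replicates 1 and 3. The runs described were chosen after their values were seen.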

How the data were processed

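The deposited values are raw counts of reads for each gene ID, as whole numbers with a column for each of 15 libraries. HISAT2 served as the aligner, per the submitters' processing notes. Not given in the sources used here are its version, the counting program, the build and annotation, and how strand and multiply mapped reads were treated, so counts of near-identical, overlapping and antisense genes are uncertain.

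For the leaf and root libraries, edgeR 4.0.16 was run under R 4.3.3. IDs were kept by filterByExpr (minimum count 10), scaled by TMM (trimmed mean of M-values) and tested by glmQLFit and glmQLFTest with Benjamini-Hochberg adjustment over all genes tested. Intervals used the log2 fold change over the square root of F as standard error. CPM used the TMM factors, except for detection. Levels in other organs were scaled over all 15 libraries. Intervals of read ratios are exact binomial (Clopper-Pearson) and cover counting error only. The procedure was tested on simulated counts with few changed genes. In a single simulated set the share of false calls was above the nominal level and most 2-fold changes were missed. Far more genes were called between leaf and root, so that share does not carry over to these data. Calls near the threshold and the 2 to 4-fold class remain the least certain.

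Members, lists and tests were chosen with earlier results of these data known. The 4 printed IDs are, in each direction, the non-overlapping call with the highest mean CPM and the next with the smallest adjusted p and at least 10 CPM, with ties broken by the larger fitted fold. Gene lists for photosynthesis, nutrient uptake and other pathways could not be matched to IDs and were not tested. No libraries were identical: chi-square per gene between replicates was at least 5.32. Alternatives included DESeq2 1.42.0, other scaling, filters, thresholds, a fit to all 15 libraries and each library left out.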

Additional observations from a re-analysis of the deposited data

How the results depend on the processing

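The number of calls stayed within 1.5 times its value of 9911 with other scaling, filters, DESeq2 (10231), the fit to all 15 libraries (11704) and each library left out (8326 to 10381). The genes called changed more than their number. With 1 library left out, 81.4 to 91.6% of the main calls were kept, and with the replicate block 86.1%. Of the 11488 calls without replicate 1 of leaf and of root, 79.1% were main calls. No shared call changed direction, which is little evidence, since the fits used largely the same libraries. A test against a 2-fold change (glmTreat) gave 6532 calls, 3452 in leaf and 3080 in root, and a 4-fold limit gave 5930, with 3226 and 2704. The leaf share of calls was 53.8% with all 15 libraries, 53.5% with RLE factors, 60.9% with plain totals, 55.8% without a filter, 56.2% without the most abundant IDs, 56.7% without replicate 1 of leaf and of root, 53.6% with DESeq2, 50.9% by adjusted p alone, 54.4% at 4-fold, and 50.3 to 58.1% with 1 library left out. Among genes of 100 to 1000 CPM it was 34.0% with all 15 libraries, 43.3% with plain totals, 37.6% without a filter, 36.8% without the most abundant IDs and 21.8 to 44.7% with 1 library left out. Genes bounded within 2-fold numbered 5642 with all 15 libraries (the cause was not tested) and 1354 to 3268 with 1 library left out. With at least 5 reads in each library, 526 IDs were found in leaf and not root and 306 in root and not leaf. Leaf was the highest organ for 60.3% of leaf calls with RLE factors, 53.2% with plain totals and 57.3 to 60.7% with 1 library left out. Root was the highest organ for 76.9, 69.3 and 70.4 to 76.2% of root calls. The abundance class and highest-organ alternatives were chosen after the data were seen. Deviations of same-numbered leaf and root libraries correlated at -0.213, -0.229 and -0.00543. With only 3 libraries per organ, these values cannot decide whether same-numbered libraries shared a plant, which the labels do not state. The main fit used no pairing. With the replicate block 8616 genes were called, and E3N88_19494 was not (adjusted p = 0.0932). Root replicate 2, at 3777165 counts, limits what can be called absent from root.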
